A study of Oryza sativa with 20 samples.

Results

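PIN proteins are membrane carriers that move the hormone auxin out of the cytoplasm. Long PIN proteins, such as those of the PIN2 and PIN3 type, sit in the plasma membrane, often on 1 side of the cell, and so set the direction in which auxin flows through a tissue. Those of the PIN5 type are short, and in Arabidopsis PIN5 lies in the endoplasmic reticulum and moves auxin inside the cell. Rice crown roots arise from the stem base, the tissue sampled here, and auxin is known to be needed for their formation.

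The genes described here are those whose annotated symbol or RefSeq synonym is PIN or OsPIN followed by a number and an optional letter. The RefSeq annotation held 9 such genes. Of these, 5 were represented on the array by 6 probe sets, out of 57258 probe sets in all. PIN3A had 2 probe sets, and PIN5A, PIN5C, PIN9 and PIN2 had 1 each. The other 4 genes, PIN5B among them, were not analysed here. PIN names overlap in the annotation. PIN5A (LOC4324368), also written PIN5a, has the synonym PIN6, PIN9 (LOC4327533) is also called PIN5, PIN5C (LOC4346116) shares the synonyms OsPIN5b and OsPIN5c with PIN5B (LOC4347506), and PIN3A (LOC4326565) is also called OsPIN3t. The locus number therefore fixes which gene is meant, and that of PIN2 is LOC4341736.

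Transcripts were measured on 20 Affymetrix rice arrays of RNA from stem bases of 8 day old rice seedlings. All plants were crl1 (crown rootless) mutants of the cultivar Taichung65, which lack a working copy of a LOB-domain transcription factor needed to start crown roots. The CRL1 groups were 3 independent lines of this mutant carrying pINDEX2-CRL1, a construct in which dexamethasone, a synthetic glucocorticoid, turns on CRL1. The control groups were the untransformed mutant (control line 1) and a line with the empty pINDEX2 vector (control line 2), so every group lacked the endogenous CRL1 function. Per the labels, the CRL1 lines were homozygous single-locus lines chosen because they expressed CRL1 and could form crown roots after dexamethasone, and there was 1 empty-vector line. The promoter that drives the steroid-responsive activator is not given in the sources used here. Each line was sampled 4 h and 8 h after 10 µM dexamethasone or mock treatment, with 1 array for each line, treatment and time and 20 pooled stem bases per array. This gave 3 arrays in each CRL1 group and 2 in each control group. Lines are the replicates.

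The signals are MAS5 values on a linear scale, in which the trimmed mean of every array is 100. The median signal of an array lay between 10.1 and 15.5, and a signal near or below it is dim. The number of arrays limits the precision. The mean correlation of an array with the others was 0.922 to 0.959, with control line 1 (0.922 to 0.944) and the dexamethasone array of CRL1 line 2 at 8 h (0.925) at the low end. Of the 4 shoot meristem marker genes with a probe set, OSH1, OSH6 and OSH71 were above the array median on all 20 arrays. No probe set was paired with CRL1 by name or locus, and these arrays give no check of its induction.

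Differences are on the scale log2(signal + 1.7), dexamethasone minus mock unless stated, with the standard error (SE) of a limma model that pooled the spread over all 8 groups. Adjusted p-values are Benjamini-Hochberg values over 32836 probe sets, and a probe set was called at an adjusted p below 0.05. Of the 6 PIN probe sets, 5 were above the array median on at least 3 arrays and were tested in 9 comparisons. That of PIN2 was not. Of the resulting 45 tests of PIN probe sets, 1 was called: PIN5A fell in the CRL1 lines 8 h after dexamethasone. Over all tested probe sets, 6.38% were called in that comparison, 2.91% lower, and 0% to 0.710% in each of the others.

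PIN5A, a carrier of the short PIN5 type, was detected above the array median on all 20 arrays, with signals of 14.3 to 117.8. At 8 h its signal was 24.3, 14.3 and 24.8 after dexamethasone in CRL1 lines 1, 2 and 3, against 68.5, 61.2 and 49.8 after mock treatment in the same lines. The dexamethasone arrays were all below the mock arrays, and PIN5A was at 35.5%, 23.4% and 49.8% of the mock signal of the same line. In the control lines at 8 h it was 94.4 and 50.2 after dexamethasone, against 57.3 and 65.6 after mock treatment, in lines 1 and 2. There the dexamethasone values lay on both sides of the mock values.

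The fall in the CRL1 lines at 8 h was a log2 change of -1.46 ± 0.32 (SE, 3 lines; 95% interval -2.12 to -0.79), with an adjusted p of 0.0103 by limma. At that time 6.38% of all tested probe sets were called in the CRL1 lines, 3.47% higher and 2.91% lower. The same comparison gave 13.7% of probe sets with all 3 dexamethasone signals below all 3 mock signals. Of all tested probe sets, 0.719% had a lower change than PIN5A. The call was lost without CRL1 line 1 (change -1.47, adjusted p of 0.0579) and without CRL1 line 2 (change -1.20, adjusted p of 0.223). In bulk tissue, less PIN5A RNA per cell and fewer cells that express it cannot be told apart.

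**Figure D1:**
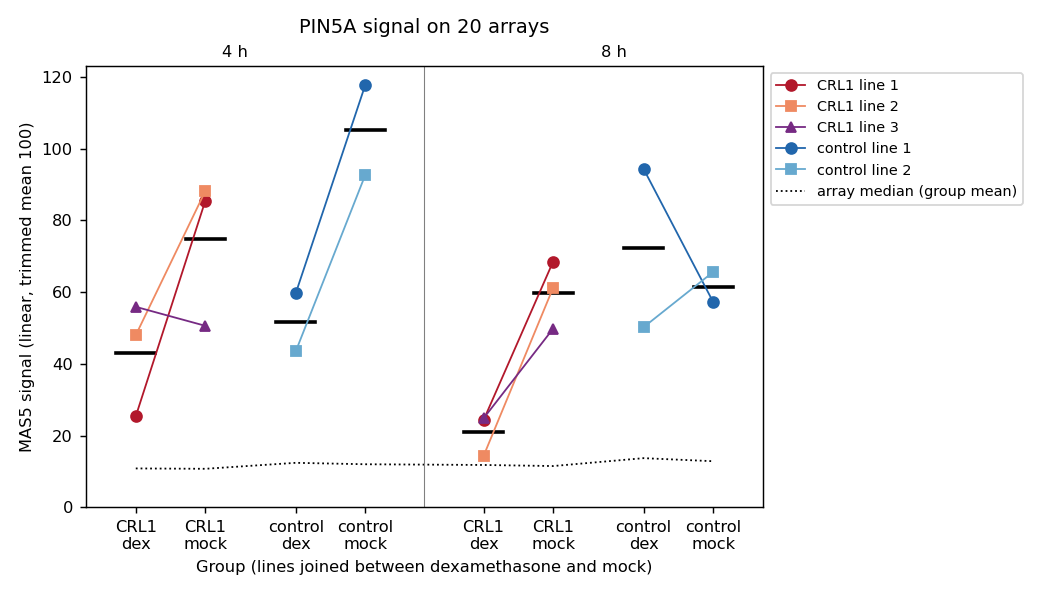
Signal of PIN5A (linear MAS5 units, vertical axis) on each of the 20 arrays, by group, with 4 h on the left and 8 h on the right. Points are lines, thin lines join the dexamethasone and mock arrays of 1 line, black bars are group means and the dotted line is the array median averaged over each group. The 3 CRL1 arrays 8 h after dexamethasone, at 14.3 to 24.8, are the lowest of all 20 arrays.

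At 4 h PIN5A did not pass the test in either kind of line. Its signal was 25.4, 48.0 and 55.9 after dexamethasone in CRL1 lines 1, 2 and 3, against 85.5, 88.2 and 50.6 after mock treatment. It was lower after dexamethasone in lines 1 and 2 and slightly higher in line 3, so that the groups overlapped. The change was -0.80 ± 0.32 (95% interval -1.47 to -0.13), with an adjusted p of 0.605 by limma. In that comparison 0.435% of probe sets were called, 0.414% higher and 0.0213% lower. In the control lines at 4 h the signal was 59.7 and 43.5 after dexamethasone, against 117.8 and 92.7 after mock treatment. Both control lines were lower after dexamethasone, at 50.7% and 46.9% of mock, and these 2 groups did not overlap. The change was -1.01 ± 0.39, with an adjusted p of 1.00. No probe set was called in the control lines at 4 h (0% called, with 781 at an unadjusted p below 0.05), and 12.9% of probe sets were lower after dexamethasone with no overlap between the pairs of arrays.

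The response of PIN5A in the CRL1 lines was set directly against that in the control lines. At 8 h the difference, CRL1 minus control, was -1.62 ± 0.50 (95% interval -2.68 to -0.56). Its unadjusted p was 0.0051 and its adjusted p 0.202 by limma, so it was not called, where 0.710% of probe sets were. At 4 h the difference was 0.21 ± 0.50 (0.00914% of probe sets called), with the CRL1 lines changing by -0.80 and the control lines by -1.01. The fall at 8 h was called within the CRL1 lines, and its difference from the response of lines without the transgene did not pass the test. The change of the CRL1 response between the times, 8 h minus 4 h, was -0.65 ± 0.45, also not called (adjusted p of 1.00; 0.00609% of probe sets were).

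Across the 8 groups the highest mean PIN5A signal was in mock-treated control lines at 4 h, at 105 ± 17.7 (SD, n = 2). Mock-treated CRL1 lines at 4 h followed at 74.8 ± 21.0 (n = 3). The next groups were control lines 8 h after dexamethasone at 72.3 ± 31.3 and after mock at 61.5 ± 5.87, CRL1 lines 8 h after mock at 59.8 ± 9.42, control lines 4 h after dexamethasone at 51.6 ± 11.5 and CRL1 lines 4 h after dexamethasone at 43.1 ± 15.8. Each of these overlapped the group before it in the order. The lowest mean was 21.1 ± 5.92 in CRL1 lines 8 h after dexamethasone. Their highest signal was 24.8, and the lowest signal of the group above was 25.4. Over both kinds of line and both times, PIN5A was lower after dexamethasone in 8 of 10 pairs of arrays from 1 line. Mock-treated CRL1 lines differed from mock-treated control lines by -0.28 ± 0.30 (adjusted p of 0.776 by limma with line as a random block, 0.00305% of probe sets called), and mock-treated plants at 8 h from those at 4 h by -0.52 ± 0.25 (adjusted p of 1.00, 0.0122% called).

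Tissue markers were read beside the PIN5A result. The summed signal of the 4 shoot meristem genes at 8 h was 706 to 1056 after dexamethasone in the CRL1 lines, against 1133 to 1345 after mock treatment. These ranges did not overlap, and none of the 4 genes was called. In the control lines at 8 h the sum was 1102 to 1841 after dexamethasone, against 1581 to 1616 after mock treatment. In the CRL1 lines at 8 h the sums of 3 leaf, 6 root and 5 secondary wall genes were 10735 to 10848, 285 to 449 and 551 to 770 after dexamethasone, against 9434 to 12103, 263 to 693 and 645 to 1426 after mock treatment, with overlap in each list. At 4 h the secondary wall sum in the CRL1 lines was 615 to 924 after dexamethasone, against 939 to 1628 after mock treatment, with no overlap, while the other 3 lists overlapped. That sum was 616 to 754 in the control lines at 4 h after dexamethasone, against 690 to 1045 after mock treatment. None of the summed markers was at 0 on any array. The part of tissue composition in the PIN5A result was not tested.

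The probe set of PIN5A, Os.17449.1.A1_at, carries an A in its identifier where the other 5 PIN probe sets carry an S. What this letter says about the strand is not given in the sources used here. Of the genes next to PIN5A in the annotation, LOC4324367 had a change of -0.35 ± 0.22 in the CRL1 lines at 8 h and was not called (adjusted p of 0.455 by limma). SSI2, a stearoyl-acyl carrier protein desaturase gene on the other side, fell by 0.64 ± 0.13 on the log2 scale (adjusted p of 0.00633). That call was lost without CRL1 line 1 (adjusted p of 0.113) or line 3 (0.148). Of all tested probe sets, 2.91% were called lower there. Called neighbours were not particular to PIN5A. Next to PIN2, LOC4341735 changed by -1.18 ± 0.15 (adjusted p of 0.000153 by limma), and LOC4341738 by 0.15 ± 0.26, not called (0.850). No tested neighbour of PIN3A or PIN5C was called.

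PIN3A was above the array median on all 20 arrays by both of its probe sets and did not pass the test in any comparison. Its probe set Os.33170.1.S1_x_at, here the x_at set, had 172.1, 99.7 and 215.6 after dexamethasone in CRL1 lines 1, 2 and 3 at 8 h, against 112.3, 122.5 and 131.7 after mock treatment. Its probe set Os.33170.2.S1_at, here the at set, had 129.9, 73.6 and 135.6 after dexamethasone at 8 h, against 75.9, 89.2 and 81.6. In both, lines 1 and 3 were higher after dexamethasone and line 2 was lower. The changes were 0.34 ± 0.31 (95% interval -0.31 to 0.99; adjusted p of 0.652 by limma) and 0.40 ± 0.27 (95% interval -0.17 to 0.98; adjusted p of 0.493).

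At 4 h both kinds of line had somewhat higher PIN3A signals after dexamethasone, within the error of the model. The at set had 102.6, 99.9 and 119.3 after dexamethasone in the CRL1 lines, against 71.8, 90.4 and 85.8 after mock treatment, with no overlap. It had 137.0 and 126.6 after dexamethasone in the control lines, against 105.8 and 90.9, again with no overlap. The changes were 0.37 ± 0.27 in the CRL1 lines and 0.42 ± 0.33 in the control lines, neither of them called (adjusted p of 1.00 each by limma). The x_at set had 171.3, 125.6 and 150.1 after dexamethasone in the CRL1 lines at 4 h, against 114.4, 126.0 and 119.6, and 188.3 and 187.0 in the control lines, against 144.3 and 120.2. Its changes were 0.30 ± 0.31 and 0.51 ± 0.38. In the CRL1 lines at 4 h, 6.44% of all probe sets were higher after dexamethasone with no overlap, and 13.3% were in the control lines.

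In the control lines at 8 h the 2 lines went opposite ways. The x_at set had 206.2 and 80.3 after dexamethasone in control lines 1 and 2, against 165.5 and 91.2 after mock treatment, a change of 0.07 ± 0.38. The at set had 168.2 and 67.4 after dexamethasone, against 109.4 and 85.0, a change of 0.14 ± 0.33. Over all lines and times PIN3A was higher after dexamethasone in 7 of 10 pairs by the x_at set and in 8 of 10 by the at set. The difference between kinds of line was -0.21 ± 0.49 and -0.05 ± 0.43 at 4 h, and 0.27 ± 0.49 and 0.26 ± 0.43 at 8 h, none of them called. Both probe sets ranked the arrays alike, with a Pearson r of 0.91 and a Spearman rho of 0.93 over 20 arrays that share lines and treatments. A probe set whose identifier ends in x_at can share probes with other sequences, which limits the x_at set.

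PIN5C, the other measured carrier of the PIN5 type, was dim and above the array median on 11 of 20 arrays. At 8 h it was 8.0, 9.8 and 4.9 after dexamethasone in CRL1 lines 1, 2 and 3, against 7.9, 16.6 and 9.4 after mock treatment. It was lower in lines 2 and 3 and level in line 1. The change was -0.47 ± 0.47 (95% interval -1.47 to 0.53; adjusted p of 0.693 by limma), against 0.46 ± 0.58 in the control lines, where the signal was 30.1 and 13.5 after dexamethasone and 19.6 and 10.3 after mock treatment. The difference between kinds of line at 8 h, CRL1 minus control, was -0.93 ± 0.74 (adjusted p of 0.795). At 4 h PIN5C had 7.2, 8.1 and 21.1 after dexamethasone in the CRL1 lines, against 11.8, 11.6 and 11.1 after mock treatment, a change of -0.07 ± 0.47. In the control lines at 4 h it had 22.8 and 6.7 after dexamethasone, against 20 and 11.4, a change of -0.23 ± 0.58. Every pair of neighbouring groups overlapped in the order of mean PIN5C signals, which ran from 21.8 ± 11.7 in control lines 8 h after dexamethasone down to 7.57 ± 2.48 in CRL1 lines 8 h after dexamethasone.

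PIN9, a carrier found in monocots and not in Arabidopsis, was above the array median on every array of control line 1 and of no other line. It was above the array median on 7 of 20 arrays. In the CRL1 lines it was 3.4, 7.4 and 2.9 after dexamethasone at 4 h, against 6.7, 9.3 and 7.0 after mock treatment. At 8 h it was 4.9, 14.1 and 8.3 after dexamethasone, against 1.0, 4.8 and 1.5 after mock treatment. In these lines only the value of 14.1, from CRL1 line 2, exceeded its array's median. The untransformed control line 1 had 37.7 at 4 h and 63.4 at 8 h after dexamethasone, against 16.5 and 109.0 after mock treatment, and empty-vector control line 2 had 20.3 and 11.3, against 11.6 and 9.9. The highest PIN9 values thus came from 1 line, control line 1.

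Mock-treated CRL1 lines had 1.0 to 9.3 and mock-treated control lines 9.9 to 109.0 for PIN9, with no overlap. 1.33% of all probe sets were lower with no overlap in this comparison. The difference, CRL1 minus control, was -1.98 ± 0.56 with line as a random block (unadjusted p of 0.0025, adjusted p of 0.573 by limma), and it was not called. It was -2.91 without control line 2 and -1.06 without control line 1. With control line 1 as the lone control line, which was then assumed to vary like the others, 3936 probe sets were called, PIN9 among them, against 1 with both control lines, so that no p is drawn from it.

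The dexamethasone response of PIN9 was not called in any comparison. In the CRL1 lines it was -0.64 ± 0.71 at 4 h, lower in 3 of 3 lines, and 1.40 ± 0.71 at 8 h, higher in 3 of 3 lines with no overlap (adjusted p of 0.317 by limma; 10.6% of probe sets were higher with no overlap). In the control lines it was 0.92 ± 0.87 at 4 h and -0.30 ± 0.87 at 8 h. As most signals of the CRL1 lines were below the array median, the change at 8 h ran from 0.54 with an offset at the median signal to 2.11 with no offset.

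PIN2, which in Arabidopsis carries auxin away from the root tip and is needed for root gravitropism, was above the array median on 1 of 20 arrays. Its signals were 1.9 to 10.2 after dexamethasone and 0.6 to 17.2 after mock treatment over all 20 arrays. It was not tested with the other PIN genes. Without the filter on dim probe sets its change in the CRL1 lines was -0.75 ± 0.55 at 4 h and 0.52 ± 0.55 at 8 h, with adjusted p-values of 1.00 and 0.809 by limma.

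**Figure D2:**
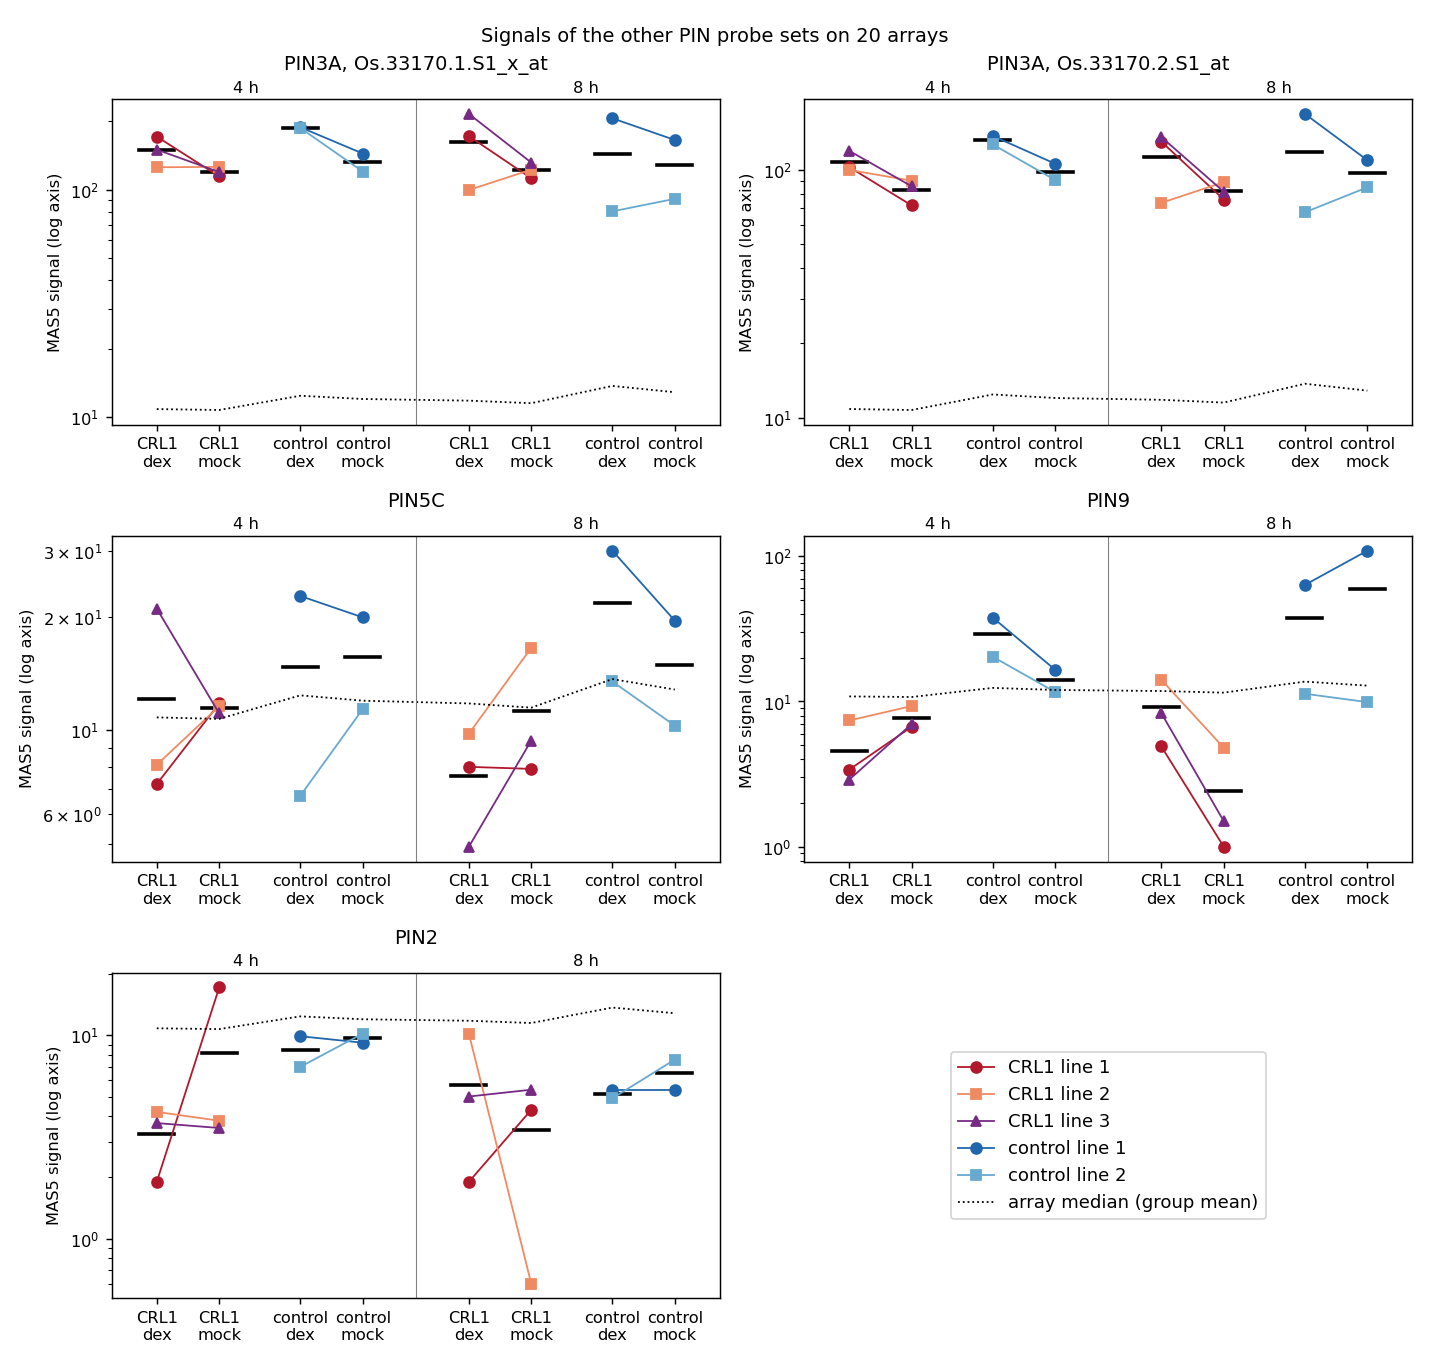
Signals of the other PIN probe sets (MAS5 units, logarithmic vertical axes) on the 20 arrays, in panels for both PIN3A probe sets, PIN5C, PIN9 and PIN2, with points, joins, bars and dotted line as in the plot of PIN5A. PIN3A lay above the array median on all 20 arrays, while PIN2 exceeded it on 1 array and PIN9 was highest in control line 1.

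**Figure D3:**
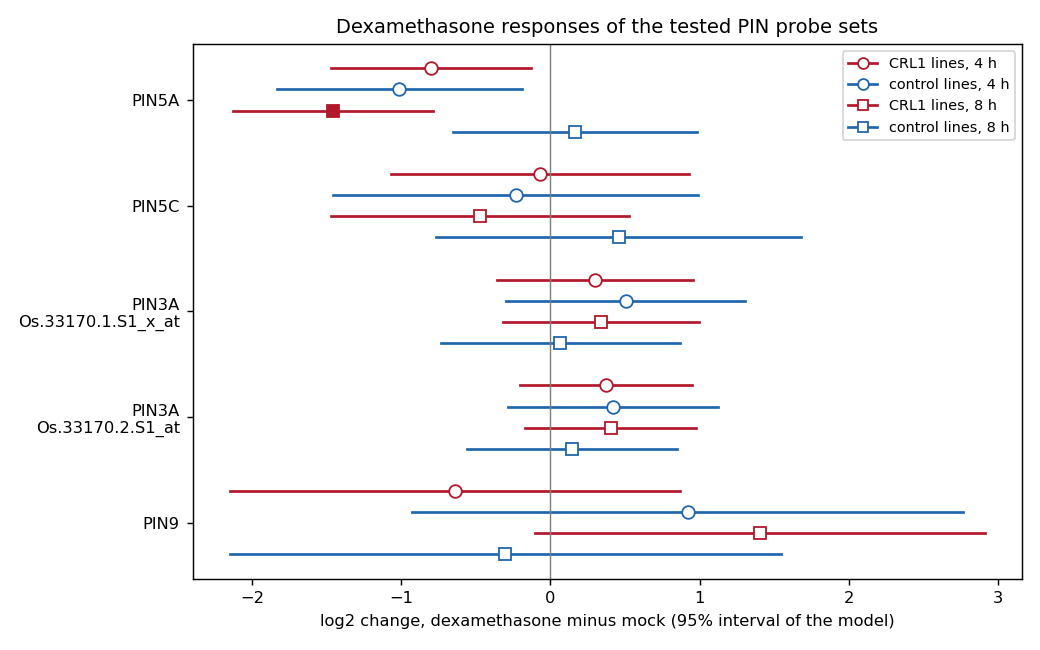
Dexamethasone response (log2 change, dexamethasone minus mock, horizontal axis) of the 5 tested PIN probe sets in CRL1 lines (red) and control lines (blue) at 4 h (circles) and 8 h (squares). Horizontal bars are 95% intervals of the limma model and a filled symbol marks an adjusted p below 0.05. The only filled symbol is that of PIN5A in the CRL1 lines at 8 h, at -1.46.

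The estimated changes of the PIN probe sets differed in sign, but only that of PIN5A was called. Differences between PIN genes were not tested. In the CRL1 lines at 8 h the changes of the 5 tested probe sets ran from -1.46 for PIN5A to 1.40 for PIN9, and the median of all tested probe sets was -0.04. Over the 20 arrays, which share lines and treatments, PIN5A and PIN5C had a Pearson r of 0.57 and a Spearman rho of 0.63. PIN5C and PIN9 had an r of 0.54 and a rho of 0.40. PIN5A had an r of -0.11 and -0.02 with the x_at and at sets of PIN3A.

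Genes whose pattern over the 20 arrays was most like that of each PIN probe set were taken from 2307 named genes by Pearson r. For PIN5A they were the homeobox gene HOS13 (0.884), the small heat shock protein gene HSP17.9B (0.869), the metal transporter gene MTP1 (0.861), FIL2 (0.860) and D53-L (0.854). These genes were picked for their pattern over arrays that include those of the CRL1 lines at 8 h, so their changes there are a description and were not tested. The log2 changes were -1.32 for HOS13, -0.72 for MTP1, -0.59 for D53-L, -0.54 for HSP17.9B and -0.48 for FIL2, against -1.46 for PIN5A.

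For the at set of PIN3A the most similar genes were the copper transporter gene COPT5.1 (0.837), the heat shock factor gene HSF23 (0.834), the potassium transporter gene HAK10 (0.829), SAP5 (0.796) and 4CL5 (0.793). COPT5.1, HSF23 and 4CL5 were also among the nearest 5 of the x_at set, with OSK3 and OsTrx18. For PIN9 they were AOS3 (0.859), OsCASPL1U2 (0.850), the potassium transporter gene HAK5 (0.848), CERK (0.837) and ACC2 (0.834), and for PIN5C they were the protein phosphatase gene OsPP2C62 (0.839), DRR2 (0.803), LOGL9 (0.801), LAC15 (0.791) and GINT1 (0.789). The Spearman rho of the PIN9 genes was lower, at 0.802, 0.744, 0.644, 0.565 and 0.758 in this order. The highest PIN9 signals came from control line 1, and arrays of that line can weigh heavily in r. For the PIN5C genes rho was 0.642 to 0.765.

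Other auxin genes with a symbol in the annotation were read beside the PIN genes, each by its probe set with the highest mean signal. The list for other parts of auxin transport held 6 genes, of which 5 were tested in the CRL1 lines at 8 h. None rose and 1 fell, where 3.47% of all tested probe sets were called higher and 2.91% lower. The median change of the list was 0.05, against -0.04 over all tested probe sets. The list was matched by symbol. It includes LAX, which is not a carrier, and OsCRL4, whose identity was not settled here. These had the highest changes of the list, 0.87 and 0.53, so its median does not describe auxin transport genes alone. The gene that fell was PID, the rice counterpart of the Arabidopsis kinase PINOID, which phosphorylates PIN proteins and steers them to 1 side of the cell. PID changed by -0.88 ± 0.21 at 8 h (adjusted p of 0.0194 by limma) and by -0.59 ± 0.21 at 4 h (0.480), with 0.21 ± 0.26 at 4 h and -0.29 ± 0.26 at 8 h in the control lines. Its difference between kinds of line at 8 h was -0.59 ± 0.33 and was not called (0.630). The call of PID was lost without CRL1 line 1, 2 or 3 (adjusted p of 0.0954, 0.193 and 0.195) and with only the groups compared in the model (0.0697).

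The remaining tested members of this list were not called. PID2, a close relative of PID, had -0.32 ± 0.22 by an x_at probe set. Its other, dimmer probe set (median signal of 13.85) had the opposite sign, 0.56 ± 0.34, and was not called either. The ABC transporter gene mdr17 had 0.05 ± 0.44. OsCRL4 had 0.53 ± 0.40 and LAX 0.87 ± 0.56. The symbol LAX is that of the rice lax panicle transcription factor and not of an AUX1-like influx carrier, so no influx carrier was measured under the names searched.

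Among 4 auxin synthesis genes tested in the CRL1 lines at 8 h, none rose and 1 fell, beside 3.47% and 2.91% of all tested probe sets, with a median of -0.14. FIB, a tryptophan aminotransferase of the main route to auxin, fell by 1.03 ± 0.16 on the log2 scale (adjusted p of 0.00109 by limma), with a difference from the control lines of -0.82 ± 0.26 that was not called (0.219). YUCCA1, the flavin monooxygenase of the next step, had 0.99 ± 0.32 and was not called (0.0835), but passed with an offset at the median signal (0.0289) and without the variance trend (0.0486). Its tested probe set is an x_at set with a dim median signal of 10.9, and its other probe set failed the filter. YUCCA1 had 1.16 ± 0.39 in the control lines at 8 h (1.00), and the difference, CRL1 minus control, was -0.17 ± 0.50 (0.978). ASA1 had -0.41 ± 0.18 and ASA2 had 0.12 ± 0.46. The 2 tested genes of the TPR co-repressor family, which works with auxin repressors, had -0.39 ± 0.12 (LOC4327709, adjusted p of 0.0672) and -0.01 ± 0.15 (TPR3) and were not called. That of LOC4327709 passed with line as a block (0.0185), under the stricter filter (0.0451) and with array weights (0.0490).

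The last list held genes that inactivate auxin or release it from its conjugates. Of 16 tested, 4 rose in the CRL1 lines at 8 h and none fell, beside 3.47% and 2.91% of all tested probe sets, with a median of -0.05. GH3-8, an enzyme that joins auxin to amino acids, rose by 3.74 ± 0.41 and DAO, a dioxygenase that oxidises auxin, by 0.83 ± 0.24 (adjusted p of 4.61e-05 and 0.0487 by limma). The call of DAO was lost without any 1 of the 5 lines (0.0547 to 0.259), and with no filter, quantile normalization, only the groups compared, array weights or no variance trend (0.0553 to 0.102). The other 2 were the auxin-conjugating enzyme genes GH3.1, which rose by 1.97 ± 0.31 (adjusted p of 0.00098 by limma), and GH3.4, which rose by 1.32 ± 0.36 (0.0381). The call of GH3.4 was lost without any 1 CRL1 line (0.111 to 0.173), and with no filter, array weights or no variance trend (0.0516 to 0.0556). ILL3 changed by -1.32 ± 0.64 at 8 h and was not called (0.295), but passed with line as a block (0.0064). ILL2 changed by -0.60 ± 0.21 and was not called (0.107), but passed with array weights (0.0379). At 4 h 1 of the 16, GH3-8, was called (2.23 ± 0.41, adjusted p of 0.0199, where 0.414% of all tested probe sets were called higher), and without any 1 CRL1 line it was not (0.0559 to 0.456). No member of these 4 lists was called for the difference between CRL1 and control lines at 8 h. The share called over all tested probe sets was 0.710%, so few calls could be looked for in lists of this size. GH3-8 had a difference of 2.87 ± 0.65 (adjusted p of 0.0551 by limma). For comparison, QHB, a homeobox gene of the root quiescent centre and a called responder, had a difference of 3.49 ± 0.71 there (0.0310).

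**Figure D4:**
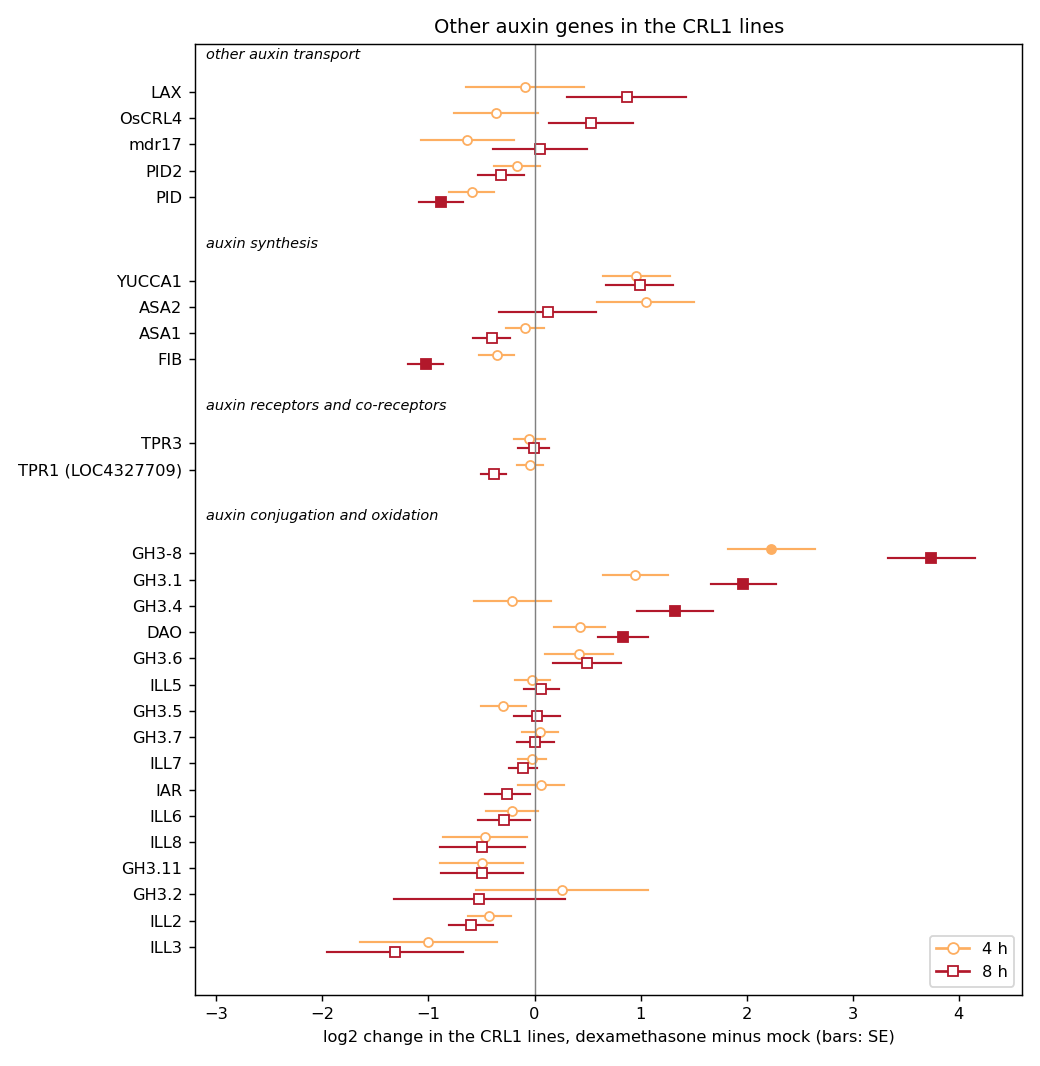
Change of other auxin genes in the CRL1 lines (log2, dexamethasone minus mock, horizontal axis) at 4 h (orange circles) and 8 h (red squares), by list, with 1 probe set per gene. Bars are SE and a filled symbol marks an adjusted p below 0.05. PID and FIB are the called falls at 8 h, and GH3-8 is the gene called at both times.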

How the data were processed

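The authors deposited intensity values from MAS5, on a linear scale. The submitters' processing notes name Affymetrix Expression Console as the software, and its version is not given in the sources used here. Trimming 2% at each end, the mean of every deposited array was 100, and no pair of arrays was identical. Per the labels' protocols the RNA was labelled with biotin. After removal of 123 control probe sets, 57258 remained, of which 22436 had 1 gene in the platform annotation, 95 had several and 34727 had none listed. Gene names were updated through gene numbers in RefSeq (assembly ASM3414082v1). No coordinates are printed, as the genome build behind the array is not given in the sources used here.

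Signals were transformed as log2(signal + 1.7), with the 20th percentile of all signals as offset, which understates changes of dim transcripts. The filter kept the 32836 probe sets (16517 genes) that exceeded the array median on 3 arrays or more. Tests were run in limma 3.58.1 (R 4.3.3) on 8 group means over 20 arrays, with trended empirical Bayes variances, 12 residual degrees of freedom and Benjamini-Hochberg adjustment. The model treated arrays of 1 line as independent, apart from the contrast between mock-treated lines, where line was a random block (correlation 0.228). Apart from that contrast, the p-values rest on the spread of arrays around group means, as if arrays of the 5 lines were independent. They do not measure the spread of the response from line to line. In simulated arrays with 200 changed among 32836 probe sets, the test of the CRL1 lines at 8 h found 35% of the changes of size 1 and 73% of those of size 2 (log2). In the data 2095 probe sets were called in that comparison, so these shares need not hold there.

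The labels pair arrays of a line. The correlation of deviations from group means was -0.05 to 0.22 (median 0.11) between arrays of the same CRL1 line and -0.20 to 0.12 (median -0.06) between CRL1 lines. It was 0.45 to 0.62 (median 0.51) between arrays of the same control line, so arrays of a control line deviated together, and with 2 control lines the values between them are the same with the sign turned. Alternatives tried were the offset (none, or the median signal), the filter (none, or the 75th percentile), quantile normalization, a model of just the compared groups, line as a fixed block, array weights, no variance trend and each line left out.

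The PIN genes and the auxin and marker lists were chosen by symbol, with earlier results of these data known. Named genes were every PIN probe set, all members of the list for other auxin transport, the 4 members of each other auxin list with the smallest p in the CRL1 lines at 8 h, the 5 genes with the highest Pearson r for each tested PIN probe set, the neighbours of PIN genes, and QHB and GH3-8. ILL2 and ILL3 were named in addition. Python 3.11.15 with pandas 2.3.3 and matplotlib 3.10.9 made the tables and plots.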

Additional observations from a re-analysis of the deposited data

Results flagged for a closer look

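PIN9 had estimated dexamethasone responses of opposite sign in the CRL1 and control lines at 4 h. It was lower in 3 of 3 CRL1 lines and higher in 2 of 2 control lines, a difference of -1.56 ± 1.12 (SE) on the log2 scale, CRL1 minus control, with an unadjusted p of 0.184 and an adjusted p of 1.00 by limma. Within the CRL1 lines its response also had opposite signs at the 2 times, higher in 3 of 3 lines at 8 h and lower in 3 of 3 lines at 4 h. That change, 8 h minus 4 h, was 2.04 ± 1.00, with an unadjusted p of 0.0589 and an adjusted p of 0.925. Neither passed the test. At 4 h the PIN9 signals after dexamethasone and mock treatment overlapped in the CRL1 lines. In the control lines they did not, where 13.3% of all probe sets were higher after dexamethasone with no overlap. In the CRL1 lines at 8 h 10.6% were. All but 1 of the 12 PIN9 signals of the CRL1 lines were below the array median.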

How the results depend on the processing

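Of 603 recomputed values for the 45 tests of PIN probe sets, 600 stayed on their side of the threshold, 2 lost a call and 1 gained a call. No called value turned its sign, and values that were not called are counted among the 600 also where their sign changed. The fall of PIN5A in the CRL1 lines at 8 h was -1.53 with no offset to -1.13 with an offset at the median signal, with adjusted p-values of 0.0080 to 0.0195. Leaving out 1 line gave -1.70 to -1.20, with adjusted p-values of 0.0115 to 0.223. The lost calls were those without CRL1 line 1 (-1.47) and without CRL1 line 2 (-1.20). PIN9 gained a call between mock-treated lines without control line 2 (-2.91), and leaving out 1 line gave -2.91 to -1.06. With line as a fixed block (replicate block) PIN5A in the CRL1 lines at 8 h kept a change of -1.46, with an adjusted p of 0.0080, and this block changed no call of a PIN probe set. PIN9 in the CRL1 lines at 8 h had an adjusted p of 0.0612 under the block, against 0.317 without it, and PIN9 ranged from 0.54 to 2.11 with the offset. PIN5A, PIN5C and PIN9 failed the stricter filter and were not tested under it.

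Counts over all probe sets moved more. Those called in the CRL1 lines at 8 h were 2095, 3643 with line as a block and 492 to 2736 leaving out 1 line. At 4 h they were 143, 354 with the block, 414 with array weights, 231 with only the groups compared and 12 to 224 leaving out 1 line. For the difference between kinds of line at 8 h they were 233, 717 with the block, 58 with array weights, 75 with only the groups compared and 62 to 171 leaving out 1 line. Between mock-treated lines the count was 1, and 3936 without control line 2, where the lone control line was assumed to vary like the others. For the change of the CRL1 response between the times the count was 2, 58 with the block and 12 with array weights, and between the times after mock treatment it was 4, 46 with the block and 0 to 43 leaving out 1 line. The causes of these changes were not tested.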
